A study of Triticum aestivum and Triticum urartu and Aegilops speltoides with 12 samples.

Results

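On a NimbleGen wheat array, 168 of 56855 features (0.295%) were high in seedlings of Triticum urartu and lower in 5 other plants, both hexaploids among them. The features were chosen from the deposited values. Log2 intensities under 7 were set to 7, the 2 arrays of each plant were averaged, and the 6 plant means were sorted. A feature was kept where the widest gap between neighbours was at least 2 (log2) and T. urartu alone lay above it. All that met the rule were kept, since they were fewer than its cap of 200. They are called T. urartu-high features below.

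The arrays held total RNA of whole seedlings, leaves and roots together, harvested on day 10 at the third leaf stage. Each of the 12 arrays read RNA of 2 seedlings, with 2 biological replicates for each of 6 plants. These were T. urartu, the diploid A genome progenitor, the wheat-rye translocation line 2BS.2RL, hexaploid wheat (ABD), Aegilops speltoides and Aegilops tauschii, the diploids labelled as B and D genome progenitors, and diploid rye. No treatment or transgene is named in the labels, and the sources used here do not give the accessions or cultivars. In RNA from whole seedlings, fewer cells of a type and less RNA per cell cannot be told apart.

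Bread wheat is an allohexaploid that carries an A, a B and a D genome, so that many genes exist as a set of related copies, called homoeologues. The A genome came from T. urartu, a wild einkorn, and the D genome from Ae. tauschii, while Ae. speltoides is the living diploid regarded as closest to the B genome donor. Triticum monococcum, cultivated einkorn, was not hybridised here but is a close relative of T. urartu, and many array sequences came from it. Homoeologues can be expressed at unequal levels, silenced or lost in a polyploid. An oligonucleotide probe also reads related transcripts, with less signal where their sequence differs from its own.

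All 168 features had 2 probes each. Of their IDs, 0 were found in the gene table (RefSeq, Chinese Spring assembly), so the features carry array IDs without gene names, and no gene function is given. The prefix of the ID was read as the species whose sequences gave the feature, such as Taestivum for bread wheat and Tmonococcum for cultivated einkorn. The 2 arrays of a plant had r between 0.968 and 0.990 across features, which are not independent. Array medians ranged from 1588 to 1667 in linear intensity. A random-sequence control, summarised by the authors from 6570 probes to 1 value per array, served as the background level. It averaged 6.99 (log2, n = 2 arrays each) in T. urartu, 6.48 in the translocation line, 6.53 in wheat, 7.27 in Ae. speltoides, 7.01 in Ae. tauschii and 7.41 in rye. It is no detection limit, since many features lay below it.

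The T. urartu-high features were of ordinary brightness in T. urartu and near background in the other diploids, with the hexaploids in between. Their median level was 10.80 (log2) in T. urartu, 7.66 in the translocation line, 7.75 in wheat, 6.91 in Ae. speltoides, 6.89 in Ae. tauschii and 6.93 in rye. These values chose the features and are given as a description, with no test. In T. urartu they spanned 9.07 to 14.39, and 52.4% of all features on the array lay below their median there. The lowest T. urartu array exceeded the highest of the 10 other arrays in all 168, by at least 1.26, and by 2 or more in 97.

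**Figure D1:**
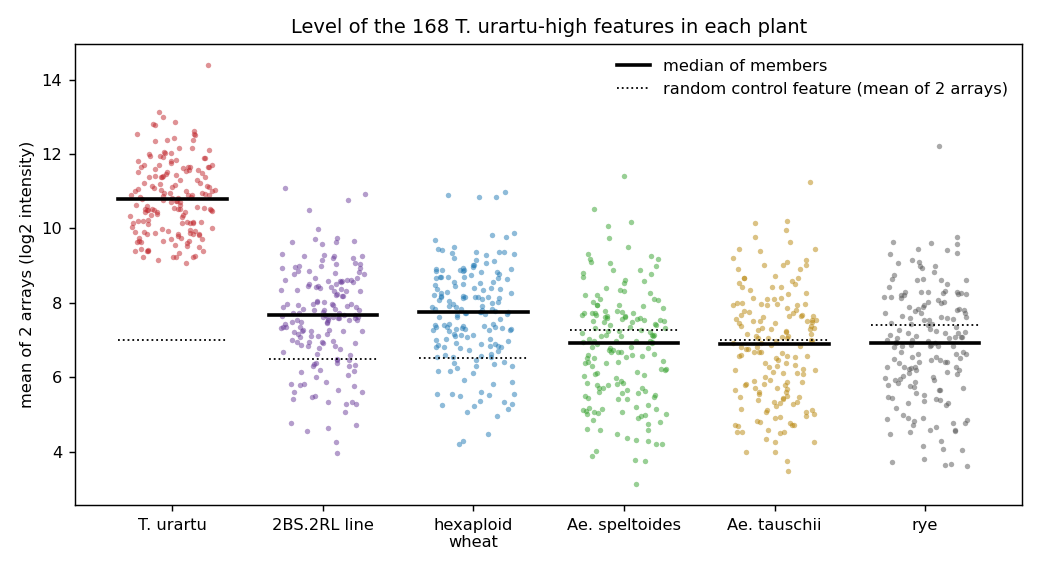
Each point is the mean log2 intensity of 1 of the 168 T. urartu-high features over the 2 arrays of a plant, with plants along the horizontal axis. Solid bars mark the medians (10.80 in T. urartu, 7.66 in the 2BS.2RL line, 7.75 in hexaploid wheat, 6.91, 6.89 and 6.93 in Ae. speltoides, Ae. tauschii and rye), and dotted bars the random control feature, which lies below the median in T. urartu and both hexaploids but not in the other diploids.

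The gaps were mostly near the limit. Their median was 2.37, 37 features had a gap of at least 3, and 8 a gap of at least 4. Just inside the limit were Taestivum_ESTC036798 (2.01), Taestivum_ESTC049604 (2.01) and Aspeltoides_ESTC001857 (2.01). Just outside were Tmonococcum_ESTC003813 (1.99), Taestivum_ESTC036934 (1.98) and Taestivum_ESTC023774 (1.98). In the first of these outsiders T. urartu was at 11.07 and Ae. speltoides at 9.09, with both hexaploids and Ae. tauschii at the floor. The gaps on both sides of the limit were nearly equal, while the levels in the 5 lower plants varied from feature to feature.

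The widest gap belonged to Tmonococcum_ESTC003907. It read 12.50 and 12.58 (log2) on the T. urartu arrays, 6.38 and 6.38 in the translocation line, 6.35 and 6.17 in wheat, 7.24 and 7.32 in Ae. speltoides, 6.74 and 7.20 in Ae. tauschii, and 7.22 and 7.70 in rye. Both hexaploids lay at or under the random control on every array, so T. urartu was at least 65.5-fold higher. That bound sets each hexaploid array at the random control or at its own value, whichever is higher. Tmonococcum_ESTC004884 followed almost the same profile, with 12.26 and 12.06 in T. urartu and a median of 6.85 over the other 10 arrays. Whether both read 1 transcript was not tested.

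Tmonococcum_ESTC000790 read 11.57 and 11.56 in T. urartu and between 5.46 and 6.84 on the other 10 arrays, with a median of 6.22. Aspeltoides_ESTC001490, from an Ae. speltoides sequence, read 11.53 and 11.52 in T. urartu and between 4.22 and 5.79 elsewhere, with a median of 5.12. In Ae. speltoides itself, the plant named in its ID, it was at 4.39 and 4.84, under the random control as in the other low plants. Both features lay at or under the random control on all 10 other arrays, with T. urartu at least 33.3-fold and 32.5-fold above the hexaploids.

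Tmonococcum_ESTC005719 showed another pattern among the widest gaps. It read 11.48 and 11.54 in T. urartu, 7.10 and 7.43 in the translocation line, 6.72 and 6.95 in wheat, 4.42 and 5.85 in Ae. speltoides, 3.73 and 4.24 in Ae. tauschii, and 4.48 and 5.34 in rye. All 4 hexaploid arrays lay above all 6 arrays of the other diploids and above the random control, though far below T. urartu. Tmonococcum_ESTC005009 (gap 4.94) was as bright in T. urartu, at 11.85 and 12.04. It read 5.40 and 5.26 in the translocation line and 6.56 and 6.54 in wheat. This difference did not pass the test (log2 -1.22, 95% interval -2.48 to 0.03, limma adjusted p = 0.88). The interval rests on a spread estimated over all 6 plants and not on these 4 arrays alone.

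The other 4 of the 10 widest gaps were Tmonococcum_ESTC003475 (4.23), Tmonococcum_ESTC003825 (4.22), Tmonococcum_ESTC003062 (3.91) and Tmonococcum_ESTC005537 (3.86). The last 3 lay at or under the random control on all 10 other arrays, as did 17 of the 168 T. urartu-high features in all. Of the 10 widest gaps, 9 belonged to einkorn sequences.

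**Figure D2:**
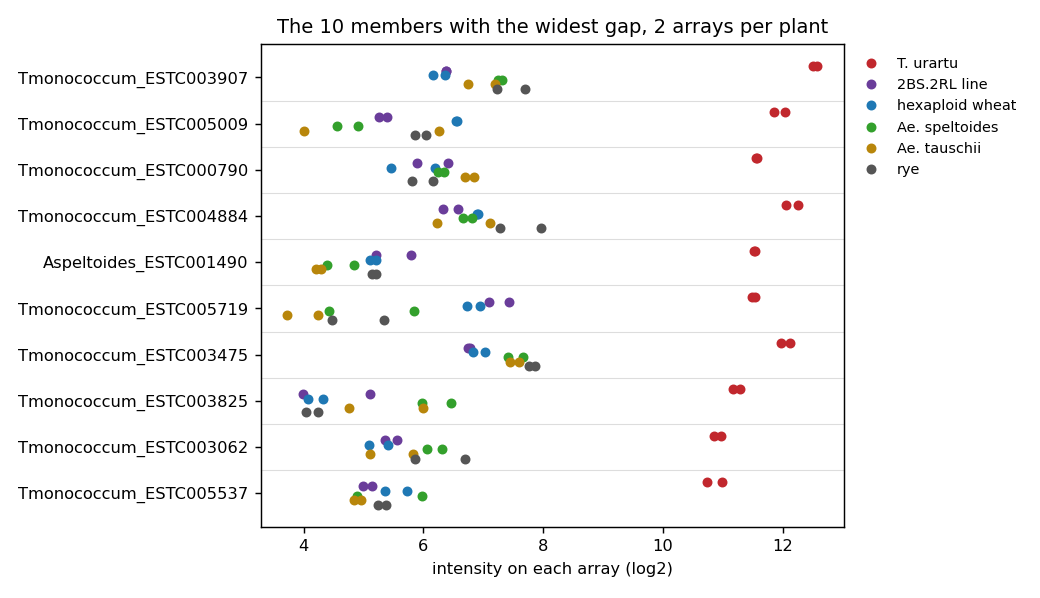
Every array value (log2 intensity, horizontal axis) of the 10 T. urartu-high features with the widest gap, 2 points per plant and 1 row per feature. The T. urartu points lie between 10.73 and 12.58, and all other points at 7.97 or lower.

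The brightest of the 168 in T. urartu were not those with the widest gaps. Tmonococcum_ESTC005408 read 14.50 and 14.29 in T. urartu and also 12.20 and 12.23 in rye, while the 4 hexaploid arrays lay between 10.77 and 10.89. Tmonococcum_ESTC003625 read 13.21 and 13.05 in T. urartu, 10.99 and 11.20 in the translocation line and 11.07 and 10.89 in wheat. Taestivum_ESTC041546 read 13.16 and 12.82 in T. urartu, 10.71 and 11.12 in the translocation line and 10.87 and 10.95 in wheat. These features, with Taestivum_ESTC021844 and Tmonococcum_ESTC004355, were plainly above background in every plant, and 36 of the 168 exceeded the random control on all 12 arrays. Taestivum_ESTC034975, among the 5 brightest in the hexaploids, read 11.94 and 12.10 in T. urartu, 9.94 and 10.04 in the translocation line and 9.73 and 10.02 in wheat, but 5.64 and 6.21 in Ae. tauschii. For the features above the control on all arrays the T. urartu-high profile is a difference in signal level. Whether that signal came from the same transcript in each plant or from related ones was not tested.

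At the dim end, Taestivum_ESTC030926 averaged 9.07 ± 0.13 (SD, n = 2) in T. urartu, Taestivum_ESTC041270 9.16 ± 0.39 and Tmonococcum_ESTC005445 9.22 ± 0.23. The spread between the T. urartu arrays was small for most features (median SD 0.13, as over all features, 0.13). The largest differences were in Taestivum_ESTC023646 (10.86 and 9.42), Taestivum_ESTC025545 (12.18 and 13.37) and Taestivum_ESTC037450 (11.20 and 10.04). Replicate 1 was the higher T. urartu array in 118 of the 168 (70.2%), against 50.1% of all features. With replicate 1 left out the rule found 164 features, 147 of them among the 168, and with replicate 2 left out 200, of which 157 were among them.

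The working name of this set is transcripts in T. urartu but not in hexaploids. Only part of its features stayed at or under the random control in the hexaploids, and that control is no detection limit. On all 4 hexaploid arrays, 120 of the 168 lay above the random control, 21 lay at or under it, and 27 were split. Among those 21, the lower bound of the fold of T. urartu over the hexaploids ran from 6.57 in Tmonococcum_ESTC005445 to 65.5 in Tmonococcum_ESTC003907, with a median of 15.3. At or under the control on both arrays of a plant were 28 features in the translocation line, 27 in wheat, 92 in Ae. speltoides, 78 in Ae. tauschii and 99 in rye. Of all features on the array, 6.96%, 7.36%, 11.4%, 9.87% and 11.8% lay there, in the same order of plants. The control itself was lower on the hexaploid arrays. Against the fixed level of 7, 51 features (30.4%) averaged lower in the translocation line, 50 (29.8%) in wheat, 91 (54.2%) in Ae. speltoides, 88 (52.4%) in Ae. tauschii and 88 (52.4%) in rye. Among all features these shares were 10.7%, 10.8%, 11.0%, 11.2% and 10.7%. The T. urartu-high features were thus more often under 7 than all features in every one of these plants, both hexaploids included.

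The fall relative to T. urartu was accordingly smaller in the hexaploids. T. urartu exceeded the translocation line by a median log2 of 2.93, wheat by 2.82, Ae. speltoides by 3.91, Ae. tauschii by 3.72 and rye by 3.72. Over all features these medians were 0.11, 0.11, -0.10, -0.03 and -0.14. T. urartu was at least 3 above the mean of the 4 hexaploid arrays in 79 features, at least 4 above in 30 and at least 5 above in 17.

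To place the 168 among related features, those at least 2 above Ae. speltoides, Ae. tauschii and rye in T. urartu were counted on the same floored means, and there were 732. In 499 of them both hexaploids lay less than 2 below T. urartu, in 221 of these less than 1. In 59 the hexaploids were on different sides of that limit. In 174 both hexaploids lay 2 or more below T. urartu, and the 168 T. urartu-high features are all among these. The other 6 had a wider gap lower down in the order of plants.

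The rule does not order the 5 other plants, although it bounds how far each can rise. A hexaploid was the second highest plant in 107 of the 168 (52 the translocation line, 55 wheat), against 25 for rye and 18 each for Ae. speltoides and Ae. tauschii. Over all features a hexaploid was the highest of the same 5 plants in 18.4%. Both hexaploid means lay above all 3 other diploid means in 82 features (48.8%, against 11.8% of all features) and below all 3 in 20 (11.9%, against 30.3%). By single arrays, all 4 hexaploid arrays exceeded all 6 arrays of Ae. speltoides, Ae. tauschii and rye in 57 features (33.9%, against 7.01%). The T. urartu-high features were chosen to be low in these plants, and no test is attached to these counts.

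Whether the hexaploids held signal above the mean of the 2 other wheat-genome diploids was tested for single features with limma over the whole array. Calls needed a log2 difference of 1 or more and a Benjamini-Hochberg adjusted p under 0.05. Against the mean of Ae. speltoides and Ae. tauschii, the translocation line was higher in 60 of the 168 (35.7%) and lower in 4. Of all features, 8.64% were called higher and 4.72% lower. Wheat was higher in 66 (39.3%) and lower in 7, with 8.42% and 3.82% of all features called. Both comparisons use the same Ae. speltoides and Ae. tauschii arrays. Here and below, a level or difference given for the 2 diploids is that of their mean. A call need not hold against each of them. Taestivum_ESTC039536 was called higher in wheat (1.53), with wheat at 6.87, Ae. speltoides at 3.12 and Ae. tauschii at 7.55.

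The median difference over the 168 was 0.60 in the translocation line and 0.67 in wheat, against -0.12 in both over all features. Of the features called higher, 56 of 60 in the translocation line and 61 of 66 in wheat lay above the random control on both arrays of that hexaploid. The median level of the 66 was 8.15 in wheat and 5.92 in the 2 diploids, and they lay a median 2.42 below T. urartu. With values under 7 set to 7, 31 (18.5%) were called higher in the translocation line and 36 (21.4%) in wheat, against 7.46% and 7.30% of all features, so part of these calls rests on values below 7.

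Rye, which carries the R genome and no A genome, was higher than the mean of Ae. speltoides and Ae. tauschii in 15 of the 168 (8.93%, against 7.67% of all features) and lower in 12 (7.14%, against 10.4%). Its median difference was 0.14, against 0.09 over all features. With arrays scaled to the random control, 12 were higher and 18 lower, against 5.22% and 14.2% of all features, and the median turned to -0.13, against -0.18 over all features. Ae. tauschii was higher than Ae. speltoides in 24 (14.3%, against 9.48%) and lower in 15 (8.93%, against 7.53%). Under that scaling these were 32 and 9, against 13.0% and 5.47% of all features, whose median moved to 0.20, against -0.06 as deposited. The differences between plants in these counts were not tested.

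**Figure D3:**
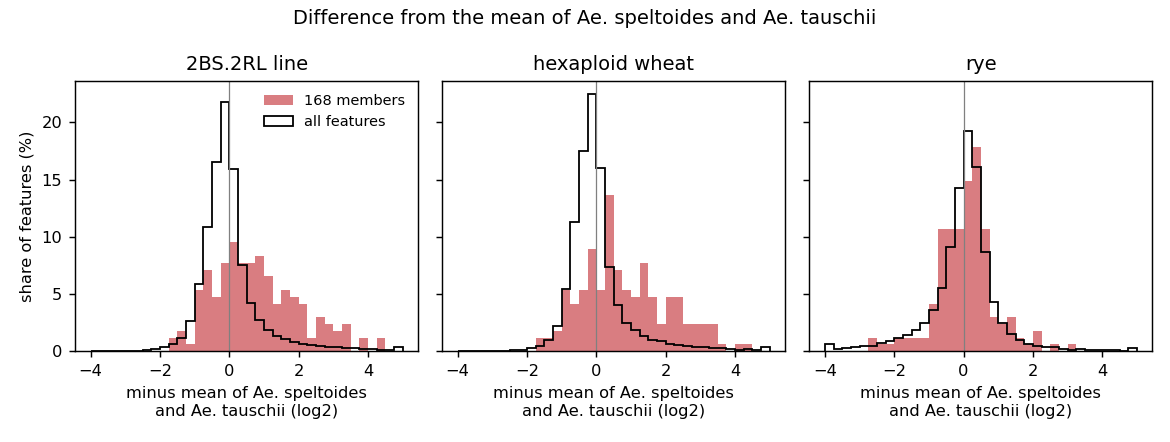
Distribution of the log2 difference from the mean of Ae. speltoides and Ae. tauschii for the 168 T. urartu-high features (filled) and all 56855 features (line), as shares in percent. The filled bars reach far to the right of zero for the 2BS.2RL line (median 0.60) and wheat (0.67) but lie near the line for rye (0.14). Values beyond the axis are drawn in its end bins.

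The features with the largest hexaploid signal over the other diploids were named after their values were seen, apart from Taestivum_ESTC042648. Aspeltoides_ESTC002010 read 12.18 and 12.06 in T. urartu, 8.98 ± 0.02 (mean and SD, n = 2) in the translocation line, 9.03 and 9.02 in wheat, 4.65 and 4.52 in Ae. speltoides, 4.81 and 4.73 in Ae. tauschii, and 5.16 and 3.93 in rye. Wheat exceeded the 2 diploids by 4.35 ± 0.27 (SE, limma adjusted p = 5.22e-06). The levels are thus separated on every array, with T. urartu highest, the hexaploids next and the other diploids at background.

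Taestivum_ESTC042648, the widest gap among bread wheat sequences, had the same order. It read 12.17 and 12.14 in T. urartu, 8.32 and 8.59 in the translocation line, 8.19 and 8.09 in wheat, and between 4.11 and 5.51 in the other diploids. Wheat was higher than the 2 diploids by 3.49 ± 0.24 (SE, limma adjusted p = 1.02e-05) and the translocation line by 3.80 ± 0.24 (limma adjusted p = 5.62e-06). In rye the difference was -0.17 (95% interval -0.72 to 0.39, limma adjusted p = 0.622).

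Taestivum_ESTC036225 and Taestivum_ESTC034896 were close to it. The first read 10.78 and 10.72 in T. urartu, 8.20 and 8.65 in the translocation line, 8.14 and 8.43 in wheat and 3.95 to 4.95 in the other diploids. The second was also higher in rye than in the 2 diploids, by 2.17 ± 0.19 (SE, limma adjusted p = 2.7e-05), with 7.49 and 7.73 on the rye arrays against 9.68 and 9.67 in wheat.

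In the opposite direction, 7 of the 168 were called lower in wheat than the 2 diploids. These were 5 of the 44 einkorn features and 2 of the 119 bread wheat features. Over the whole array, 129 of 5724 einkorn features and 1725 of 42683 bread wheat features were called lower. Tmonococcum_ESTC003825 read 11.17 and 11.28 in T. urartu, 5.11 and 3.99 in the translocation line, 4.32 and 4.07 in wheat, 6.46 and 5.98 in Ae. speltoides, and 5.38 ± 0.87 (mean and SD, n = 2) in Ae. tauschii (wheat minus the 2 diploids -1.60, limma adjusted p = 0.0113). Tmonococcum_ESTC005445 read 9.38 and 9.06 in T. urartu, 5.62 and 5.40 in wheat, 6.82 and 6.79 in Ae. speltoides, and 7.04 and 7.05 in Ae. tauschii (-1.42, limma adjusted p = 0.00044). In both, the wheat arrays lay under the random control, as did the Ae. speltoides arrays. With cyclic loess 78 of the 168 were called higher in wheat and 1 lower, against 10.1% and 1.70% of all features. With arrays scaled to the random control 98 were higher and 0 lower, against 17.1% and 0.848% of all features, whose median moved to 0.49 under that scaling, against -0.12 as deposited.

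The source of the sequence divided the T. urartu-high features. Bread wheat sequences gave 119 of the 168 (70.8%, against 75.1% of all features) and einkorn sequences 44 (26.2%, against 10.1%). Ae. speltoides sequences gave 4 (2.38%, against 4.38%), and rye sequences 1, Scereale_ESTC003553 (0.595%, against 10.1%). None came from the sequences labelled Atauschii or Asquarrosa, which each made up only 0.201% of all features. As a share of each source, 0.769% of the 5724 einkorn features were T. urartu-high, 0.279% of the bread wheat features, 0.161% of the Ae. speltoides features and 0.0174% of the rye features.

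Einkorn features were the more extreme. They made up 17 of the 20 widest gaps and 18 of the 37 gaps of at least 3, with a median gap of 2.72, against 2.33 for bread wheat features. Their median level was 11.18 in T. urartu and 7.15 over the hexaploid arrays. For bread wheat features these were 10.62 and 7.84. Hexaploid signal stayed at or under the control level on every hexaploid array in 13 of 44 einkorn features (29.5%) and 7 of 119 bread wheat features (5.88%). The same share was not counted over all einkorn and all bread wheat features on the array. This contrast may therefore hold for the sources as a whole and is not read as a trait of the T. urartu-high features.

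The hexaploid calls above the mean of Ae. speltoides and Ae. tauschii were mostly on bread wheat features. Of the 119, 50 (42.0%) were called higher in the translocation line and 56 (47.1%) in wheat, with medians of 0.86 and 0.88. Of all bread wheat features on the array, 10.2% and 9.82% were called higher. Of the 44 einkorn features, 7 (15.9%) and 8 (18.2%) were higher, with medians of -0.13 and -0.04, against 6.13% and 6.10% of all einkorn features. In rye, 13 bread wheat and 2 einkorn features were called higher, with 5.94% and 6.43% of all features of those sources called. How far the difference between sources follows from the match of probe to transcript was not tested.

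**Figure D4:**
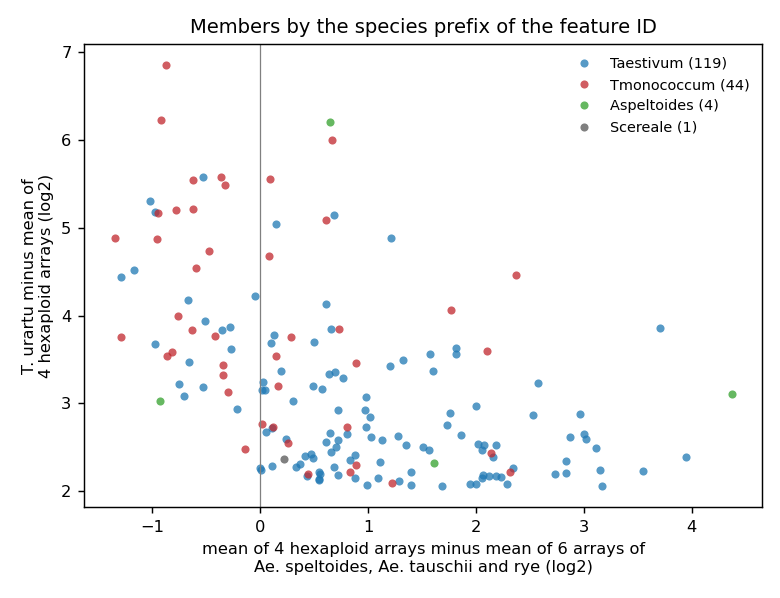
Each point is 1 of the 168 T. urartu-high features, coloured by the species prefix of its ID. The horizontal axis gives the mean of the 4 hexaploid arrays minus the mean of the 6 arrays of Ae. speltoides, Ae. tauschii and rye, the vertical axis T. urartu minus the hexaploid mean (both log2). Einkorn points (Tmonococcum) reach highest and centre near zero on the horizontal axis (median -0.06), while bread wheat points (Taestivum) lie lower and mostly to the right (median 0.84).

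The same rule applied to the other diploids found 124 features high in Ae. speltoides, 98 high in Ae. tauschii and 390 high in rye. The hexaploids lay above all 3 remaining diploids in 28.2% of the Ae. speltoides set, 55.1% of the Ae. tauschii set and 9.23% of the rye set, against 48.8% of the T. urartu set. Over all features, the same counts gave 9.52%, 12.0%, 9.23% and 11.8%. The T. urartu, Ae. tauschii and Ae. speltoides sets thus each had a larger share than all features, and the rye set had about the same share. These sets share arrays and were chosen alike, and the differences between them were not tested. Rye sequences made up 83.8% of the rye set (10.1% of all features). Ae. speltoides sequences made up 23.4% of the Ae. speltoides set (4.38% of all features). None of the Ae. tauschii set came from Atauschii or Asquarrosa sequences, which at 0.201% of all features each are too few to read.

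The translocation line carries a rye chromosome arm, 2RL, in a wheat background, and was compared with wheat. Over the T. urartu-high features the median difference, line minus wheat, was -0.03 (quartiles -0.27 and 0.20), and 78 of 168 were higher in the line. In limma, 4 of the 168 were called, 2 higher and 2 lower (0.642% of all features were called in either direction, 0.331% higher and 0.311% lower), and 23 (13.7%) had an unadjusted p under 0.05, against 5.85% of all features. At 4 calls, small changes matter: 1 was higher and 2 lower after quantile normalization, and 0 were called in either direction without translocation replicate 2. Each call rests on 2 arrays a line.

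Taestivum_ESTC023407 read 7.69 and 7.54 in the translocation line, against 5.60 and 4.83 in wheat, with 9.91 and 10.15 in T. urartu and 7.50 and 8.06 in rye (line minus wheat 2.40 ± 0.39, SE, limma adjusted p = 0.0295). Taestivum_ESTC020470 read 7.33 and 7.13 in the line, against 6.40 and 5.92 in wheat (1.07 ± 0.18, limma adjusted p = 0.035). In both, the line lay above the random control and wheat under it. Ae. speltoides was at 7.71 and 6.50 in the first and 7.09 and 6.83 in the second. Whether either difference relates to the rye arm was not tested.

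Taestivum_ESTC040976 went the other way, with 5.28 ± 0.40 (mean and SD, n = 2) in the translocation line, against 7.46 and 7.13 in wheat (-2.02 ± 0.25, limma adjusted p = 0.00627). The other diploids were at 4.42 to 4.99, so wheat alone among the low plants was above the random control. Tmonococcum_ESTC003653 read 4.69 and 4.58 in the line, against 6.27 and 6.07 in wheat (-1.53 ± 0.20, limma adjusted p = 0.00712), all under the random control. None of the 4 was called when values under 7 were set to 7.

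**Figure D5:**
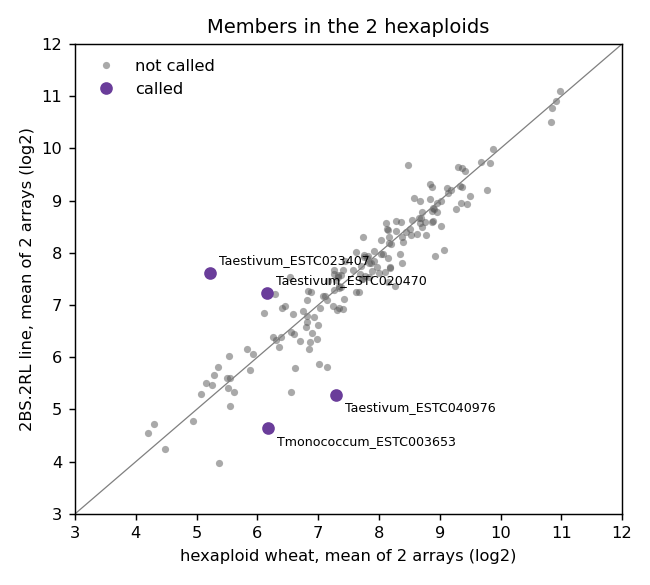
Mean log2 intensity of each of the 168 T. urartu-high features in the 2BS.2RL line (vertical axis) and hexaploid wheat (horizontal axis), 2 arrays each, with the line of equal level. Most points lie near it. Of the 4 called features 2 lie above it (2.40 and 1.07) and 2 below (-2.02 and -1.53), and 6 features that were not called differ by 1 or more, from -1.39 to 1.20.

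Many of the T. urartu-high features repeated one another's profile. Grouped by complete linkage within a root mean square distance of 0.5 (log2) over the 12 arrays, 64 of the 168 fell into 29 groups of 2 to 4 features, which leaves 133 distinct profiles. The rule itself makes profiles alike, and whether grouped features read 1 transcript was not tested. Counted once per profile, the translocation line was called higher than the mean of Ae. speltoides and Ae. tauschii in 53 and lower in 4. Wheat was called higher than that mean in 58 and lower in 7. These counts are out of the 133 profiles, and a group counted as called where any of its features was. All features on the array were not grouped in this way, so no share over the array stands beside these counts. The count of T. urartu-high features is thus larger than the count of separate patterns behind it.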

How the data were processed

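The members, the lists and the tests were chosen with earlier results of these data known. The deposited values are linear intensity values, 1 per feature and array, and per the submitters' processing notes the authors made them with RMA. The sources used here do not give its version or steps. The linear scale was read from the values. Normalization of this kind gives the arrays nearly one distribution, so a change in total transcript cannot be seen. The deposited raw table has 12 value columns under codes that match no label. They were not used, and the table served only to count probes. Probe sequences were not used here.

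Log2 was taken without an offset or a filter, and 8 control features were left out. With limma 3.58.1 (lmFit, eBayes) in R 4.3.3, a mean per plant was estimated from the 12 arrays, with Benjamini-Hochberg adjustment over all 56855 features. All adjusted p-values are limma's. T. urartu was compared with no plant by a test, since the rule used it. Named are the widest and narrowest gaps, the brightest and dimmest features, those brightest in the hexaploids, the widest gap of each source, the least repeatable, and the calls between the hexaploids. Others are said to be chosen later. The fit was tested on simulated data. Alternatives were other scalings, floors, gaps and filters, fewer groups, a replicate block, each array left out and near-identical profiles counted once, the last chosen after seeing the data. The number of arrays limits the precision. No slide or scan date is given for the arrays, and no batch was tested.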

Additional observations from a re-analysis of the deposited data

Results flagged for a closer look

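The hexaploids differed from each other by the limma test in 4 of the 168 T. urartu-high features, and these are listed for that reason. The translocation line was higher by 2.40 (log2) in Taestivum_ESTC023407 and by 1.07 in Taestivum_ESTC020470. In Taestivum_ESTC040976 the difference, line minus wheat, was -2.02, and in Tmonococcum_ESTC003653 it was -1.53. The adjusted p over 20 other settings, each array left out among them, ran from 0.00566 to 0.682, from 0.0241 to 0.433, from 0.00577 to 0.845 and from 0.00639 to 1 in these features, in that order. The call was lost in 9, 12, 3 and 3 of the 20. Taestivum_ESTC040976 and Tmonococcum_ESTC003653 lost it without wheat replicate 1 (adjusted p = 0.0763 and 0.0845), without translocation replicate 2 (0.0656 and 0.086) and with values under 7 set to 7.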

How the results depend on the processing

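The rule found 112 to 191 features under the other floors and scalings and with linear means, 376 at a gap of 1.5, 37 at a gap of 3, and 101 where every T. urartu array had to be 2 above every other. Cyclic loess kept 119 of the 168, and scaling to the random control 95. Leaving out each array gave 160 to 200. Counts of T. urartu-high features called are given next for 5 comparisons. The first is line against wheat, then come wheat, the line and rye against the mean of Ae. speltoides and Ae. tauschii. The last is Ae. tauschii against Ae. speltoides. As deposited, 0.642%, 12.2%, 13.4%, 18.1% and 17% of all features were called in either direction. Of the 168, 43.5%, 38.1%, 16.1% and 23.2% were called in the last 4 comparisons. A count without a share of all features beside it shows only how the calls moved. With values under 7 set to 7 the counts were 0, 38, 32, 11 and 20. Without the dimmest 25% of features, which leaves 27 of the 168, they were 0, 7, 7, 3 and 7. Dimness was the mean over all 12 arrays, T. urartu among them, so features could pass this filter through their T. urartu values. The calls among the 27 are therefore no support for the others. Scaling to the random control gave 99 in the line, and no minimum difference gave 53 in rye. Leaving out each array gave 0 to 5, 54 to 75, 50 to 67, 22 to 32 and 38 to 49. Line against wheat gave 2 without either T. urartu or either wheat array and 0 without translocation replicate 2. Over all features, the dimmest 25% left out gave 140, 3831 and 4077 in the first 3 comparisons. No minimum difference gave 17522, 18927, 22296 and 17279 in the last 4, and scaling to the random control gave 11490 in the line. Leaving out each array gave 212 to 367, 6137 to 7531, 6646 to 8024, 9805 to 10868 and 8996 to 10620. Fewer features tested or a changed threshold moves these counts by construction, and the cause of the other shifts was not tested. The median of all features in wheat against the 2 diploids was -0.12 as deposited, -0.01 with cyclic loess and 0.49 scaled to the random control. Relative to it the T. urartu-high features lay 0.80, 1.01 and 0.80 higher. Same-numbered arrays are not said to share a source, and their deviations correlated at -0.06 to 0.21. With the replicate block 4, 73, 65, 26 and 42 were called.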
